A study of Mus musculus with 18 samples.

Results

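The unfolded protein response and the chaperones of the endoplasmic reticulum (ER) were followed through 32 genes in the dental epithelium of mouse molars, out of 32532 gene symbols with values at E17 and 19450 at P5. The members were chosen by name, with earlier results of these data known. Each was sorted into a branch that it is part of or is commonly listed under, and this sorting was not tested. The ATF6 branch has 16 members, the XBP1 branch 9 and the PERK branch 7. All 32 were listed at embryonic day 17 (E17) and at postnatal day 5 (P5). At postnatal day 0 (P0) the values at hand cover 4841 genes and 7 members (Atf6, Hsp90b1, Canx, Derl3, Xbp1, Derl2 and Ddit3), and the other members were not analysed here at P0.

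RNA was sequenced from wild-type (WT) mice and from double knockout (DKO) mice, whose genotype is Hmgn1-/-; Hmgn2-/-, at these 3 stages, with 3 libraries in each of the 6 groups. HMGN1 and HMGN2 are nucleosome-binding chromatin proteins, and the series concerns how they act on the differentiation of ameloblasts, which secrete enamel. Strain, sex and pooling are not stated in the labels. Whether each library is from its own animal is not stated either, so that p-values measure the spread between these libraries, which may be technical.

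The ER is where a secretory cell folds the proteins it exports, and unfolded protein there is sensed by the membrane proteins ATF6, IRE1 (encoded by Ern1) and PERK (encoded by Eif2ak3). ATF6 is cut to release a transcription factor that raises chaperone genes, IRE1 splices Xbp1 RNA so that it encodes an active factor for chaperones and for the degradation of misfolded proteins, and PERK phosphorylates the translation factor eIF2, which favours translation of ATF4. Ameloblasts in the secretory stage export very large amounts of amelogenin and ameloblastin, encoded by Amelx and Ambn, and this pathway is known to be active in them.

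The promoters of several members carry ER stress elements. Shown are 6, those of 5 genes that changed at P0 or P5 and had a motif match and, for comparison, that of Xbp1. Sequences are from the RefSeq promoter table on GRCm38.p6, run 5′ to 3′ on the strand of the gene, and are cut where an exon of the GENCODE annotation begins. The stretches are chr10:86705510-86705694 for Hsp90b1 and chr12:17266339-17266544 for Pdia6, on the minus and the plus strand. Those of Creld2 (chr15:88819396-88819645), Herpud1 (chr8:94386179-94386428), Chac1 (chr2:119350992-119351228) and Xbp1 (chr11:5520391-5520640) lie on the plus strand. Capitals mark the fixed letters of a motif match.
Hsp90b1: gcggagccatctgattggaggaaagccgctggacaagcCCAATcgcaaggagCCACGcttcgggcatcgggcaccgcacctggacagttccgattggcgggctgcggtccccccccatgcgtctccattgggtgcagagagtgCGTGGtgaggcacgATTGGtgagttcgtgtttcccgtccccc
Pdia6: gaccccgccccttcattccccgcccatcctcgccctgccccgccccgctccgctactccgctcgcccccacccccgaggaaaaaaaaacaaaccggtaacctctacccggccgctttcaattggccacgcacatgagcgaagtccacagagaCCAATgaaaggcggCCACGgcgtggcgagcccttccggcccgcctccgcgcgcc
Creld2: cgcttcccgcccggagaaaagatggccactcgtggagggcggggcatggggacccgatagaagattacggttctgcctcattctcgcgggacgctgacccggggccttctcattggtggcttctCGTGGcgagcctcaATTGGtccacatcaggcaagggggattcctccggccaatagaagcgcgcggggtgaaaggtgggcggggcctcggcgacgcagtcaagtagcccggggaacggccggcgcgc
Herpud1: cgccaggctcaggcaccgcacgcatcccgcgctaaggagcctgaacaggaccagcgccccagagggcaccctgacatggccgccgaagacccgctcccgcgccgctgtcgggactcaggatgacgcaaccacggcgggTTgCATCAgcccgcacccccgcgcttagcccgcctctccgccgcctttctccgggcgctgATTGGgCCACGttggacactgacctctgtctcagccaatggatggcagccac
Chac1: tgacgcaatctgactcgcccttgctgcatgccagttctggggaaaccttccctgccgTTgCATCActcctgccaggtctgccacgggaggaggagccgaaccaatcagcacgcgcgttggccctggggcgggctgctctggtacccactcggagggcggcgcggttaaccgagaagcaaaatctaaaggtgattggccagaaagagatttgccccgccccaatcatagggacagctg
Xbp1: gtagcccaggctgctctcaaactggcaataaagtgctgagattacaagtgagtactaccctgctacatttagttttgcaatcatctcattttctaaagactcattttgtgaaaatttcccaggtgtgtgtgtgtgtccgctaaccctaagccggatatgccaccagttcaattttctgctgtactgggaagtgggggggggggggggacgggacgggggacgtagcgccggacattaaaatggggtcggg

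Of the 32 members, 28 had a promoter window in that table, and the 250 bases before the start were searched on both strands. The ER stress element, CCAAT and CCACG with 9 bases of any kind between them, was found in 9 members (Calr, Canx, Creld2, Derl3, Dnajc3, Hsp90b1, Hspa5, Pdia6 and Syvn1) and in 0.113% of all 32851 windows. Hsp90b1 had 2 matches, between 212 and 194 and between 107 and 89 bases before the start. The second form of the element, ATTGG and CCACG with 1 base of any kind between them, was found in Herpud1 among the members and in 0.0304% of all windows. TGATGNAA, the letters of an ATF4 element, was found in Asns, Chac1 and Herpud1 and in 3.45% of all windows. TGACGTGG, the core bound by XBP1, was found in no member window and in 0.563% of all windows. No match overlapped another, and the window of Xbp1 held none of the 4 motifs. The windows of Ppp1r15a, Derl2, Ern1, Pdia4 and Edem1, which also changed at some stage, held none either. Chac1 matched the ATF4 element alone. A match is a run of letters, and binding was not measured.

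Values are RPKM (reads scaled to transcript length and to mapped reads) summed over the transcripts of a gene, and log2 fold changes of DKO against WT are on the log2(RPKM + 1) scale, which understates the change of low genes. The median log2 fold change of all genes tested was 0.25 (E17), -0.05 (P0) and -0.25 (P5). Each library was therefore also scaled to a common upper quartile, which moved these medians to -0.00, -0.04 and -0.06. A gene is said to have risen or fallen where limma gave an adjusted p under 0.05 in the same direction both as deposited and after scaling.

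Hmgn2 checked the genotype labels, with 354, 344 and 320.0 RPKM in the E17 WT libraries and 0.839, 0.953 and 0.975 in the DKO libraries. Hmgn1 RNA at E17 was at 123 to 133 RPKM in WT and still at 86.2 to 92.9 in DKO. At P5 Hmgn2 had 166 to 183 RPKM in WT and 5.44 to 10.4 in DKO, and Hmgn1 RNA had 179 to 189.6 RPKM in WT and 69.8 to 72.6 in DKO, while neither gene was analysed here at P0. Libraries had 65953495 to 99967427 alignments (E17), 74845352 to 108920337 (P0) and 39209676 to 72660832 (P5). The epithelial keratin Krt14 was at 505 to 601 RPKM at E17, and RNA of mesenchyme and bone was present too. In bulk tissue, fewer cells of a type and less RNA per cell cannot be told apart.

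At E17, before enamel secretion, 1 of 31 members tested rose in DKO and none fell. That member was Ppp1r15a, which encodes the GADD34 subunit of the phosphatase that removes phosphate from eIF2. It had 4.29, 4.21 and 4.48 RPKM in WT and 6.03, 6.40 and 6.60 in DKO, so that every DKO library lay above every WT library. Its log2 fold change was 0.46 ± 0.07 (SE, n = 3 per group) as deposited, with a limma adjusted p of 0.00157, and 0.22 ± 0.06 after scaling, with an adjusted p of 0.0400. The call was lost when any 1 of the 6 libraries was left out, with adjusted p of 0.0617 to 0.147 after scaling.

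Across the 13728 genes tested at E17, 6.61% were higher and 3.07% lower by the same rule, against 3.23% of the members higher. As deposited 20 members passed as higher and 0 as lower (56.3% and 3.30% of all genes), and after scaling 1 was higher and 2 were lower (6.61% and 8.03% of all genes). All DKO libraries lay above all WT libraries for 21 members and below them for 0 as deposited (60.9% and 3.83% of all genes), and for 6 and 12 after scaling (18.0% and 19.3%). At an unadjusted p under 0.05 in both fits, 4 members were higher and 0 lower (14.6% and 3.77% of all genes). The members' median log2 fold change was 0.24 as deposited and -0.05 after scaling, close to the medians of all genes.

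The ATF6 branch at E17 had no member past both fits among 15 tested, and its median was -0.05 after scaling. Hspa5, which encodes BiP, the main ER chaperone of the Hsp70 family, had 191, 201.4 and 177 RPKM in WT and 206.7, 233 and 232 in DKO. The groups of Hspa5 did not overlap as deposited, with a log2 fold change of 0.24, but they overlapped after scaling, where it was -0.05 (limma adjusted p 0.526). Hsp90b1, which encodes the ER chaperone GRP94, had 234, 244 and 215 RPKM in WT against 257, 277 and 275 in DKO and -0.06 after scaling. The lectin chaperone genes Calr and Canx and the disulfide isomerase genes Pdia3, Pdia4 and Pdia6 had log2 fold changes between -0.12 and -0.03 after scaling. Atf6, Hyou1, Creld2 and Sel1l had between -0.06 and 0.01, and Herpud1 had -0.19 (adjusted p 0.0523). P4hb, whose product is both a disulfide isomerase and a subunit of collagen prolyl 4-hydroxylase, had 210.0, 221 and 198 RPKM in WT and 215, 225 and 228 in DKO. Its change turned direction with scaling, from 0.09 as deposited to -0.20 after scaling (adjusted p 0.0394).

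The highest values of the ATF6 branch after scaling at E17 were those of Sdf2l1 and Manf. Sdf2l1, a partner of BiP, had 14.9, 14.6 and 13.8 RPKM in WT and 18.0, 21.9 and 20.5 in DKO, and its log2 fold change was 0.45 as deposited and 0.18 after scaling (limma adjusted p 0.0620). Manf, which encodes a small ER-resident protein that can be secreted, had 93.3, 87.8 and 85.5 RPKM in WT and 115, 122 and 126 in DKO, with 0.44 as deposited and 0.16 after scaling (adjusted p 0.0568). For both genes every DKO library lay above every WT library on either scale. Without the WT replicate 1 library, the highest of its group, Manf passed both fits, with a limma adjusted p of 0.0283 after scaling. Derl3 stayed under the filter at 0.562 to 1.22 RPKM.

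In the XBP1 branch at E17, Xbp1 had 41.6, 40.8 and 38.4 RPKM in WT and 42.6, 46.2 and 46.7 in DKO. The DKO libraries lay above the WT libraries as deposited and below them after scaling, with log2 fold changes of 0.16 ± 0.07 and -0.12 ± 0.04 (limma adjusted p 0.0648 and 0.0885). Ern1 was low, at 2.28 to 2.78 RPKM in WT and 2.58 to 2.70 in DKO (-0.19 after scaling, adjusted p 0.154). Syvn1, the ubiquitin ligase HRD1 of ER-associated degradation, had 8.23, 9.79 and 9.69 RPKM in WT and 7.81, 9.22 and 8.88 in DKO, and it passed after scaling alone with -0.35 (adjusted p 0.0244). The other 6 genes of this branch had log2 fold changes between -0.15 and 0.15 after scaling.

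In the PERK branch at E17, Asns, which encodes asparagine synthetase and is a target of ATF4, had 17.2, 14.7 and 15.5 RPKM in WT and 20.3, 23.8 and 24.8 in DKO. Every DKO library of Asns was above every WT library, and its log2 fold change was 0.51 as deposited and 0.23 after scaling (limma adjusted p 0.0562). Leaving out the WT replicate 1 library, the highest of its group, brought Asns past both fits, with a limma adjusted p of 0.0324 after scaling. Chac1, which encodes an enzyme that breaks down glutathione, was low at 1.08 to 1.79 RPKM in WT and 0.911 to 1.26 in DKO, and these groups overlapped. After scaling its DKO libraries lay below the WT libraries. Its log2 fold change was -0.22 as deposited and -0.38 after scaling (limma adjusted p 0.155 and 0.0943). It met the filter through its WT libraries, as 1 of the 3 DKO libraries reached 1 RPKM. Atf4 and Ddit3, the latter encoding the factor CHOP, had -0.03 and 0.03 after scaling, and Eif2ak3 had -0.13. Trib3, which encodes a pseudokinase that binds ATF4, had 0.715 to 0.809 RPKM in WT and 1.12 to 1.16 in DKO, so that it met the filter through the DKO libraries alone, and it did not pass both fits.

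Of 83 other genes of the same branches, 80 were tested at E17, 3 rose (3.75%) and none fell. All 3 belong to the list of other PERK branch genes. Ddit4, an inhibitor of mTORC1 signalling, had 37.0, 33.7 and 33.5 RPKM in WT and 53.5, 67.8 and 62.7 in DKO (log2 fold change 0.51 after scaling, limma adjusted p 0.00274). Phgdh, the first enzyme of serine synthesis, had 50.6 to 59.4 RPKM in WT and 73.6 to 90.4 in DKO. Stc2 had 0.733 to 1.04 RPKM in WT and 1.65 to 1.83 in DKO, and it met the filter only because of its DKO libraries, where it is high.

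Markers of other tissues differed between the genotypes at E17, and their part in these results was not tested. The summed RPKM of 10 mesenchyme and odontoblast markers was 4525 to 4820 in WT and 2541 to 2864 in DKO, with 5 of 9 tested lower and 0 higher. The summed RPKM of 5 red cell markers was 5769 to 7227 in WT and 10410 to 21290 in DKO, with all 5 higher. Of 6 skeletal muscle markers, 5 were lower, and the sums were 203.3 to 445 in WT and 173 to 215 in DKO. Of 9 tooth epithelium markers, 4 were higher and 1 lower. The plasma cell and salivary gland lists, of cell types rich in ER, summed to at most 3.03 and 13.1 RPKM in any E17 library.

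**Figure D1:**
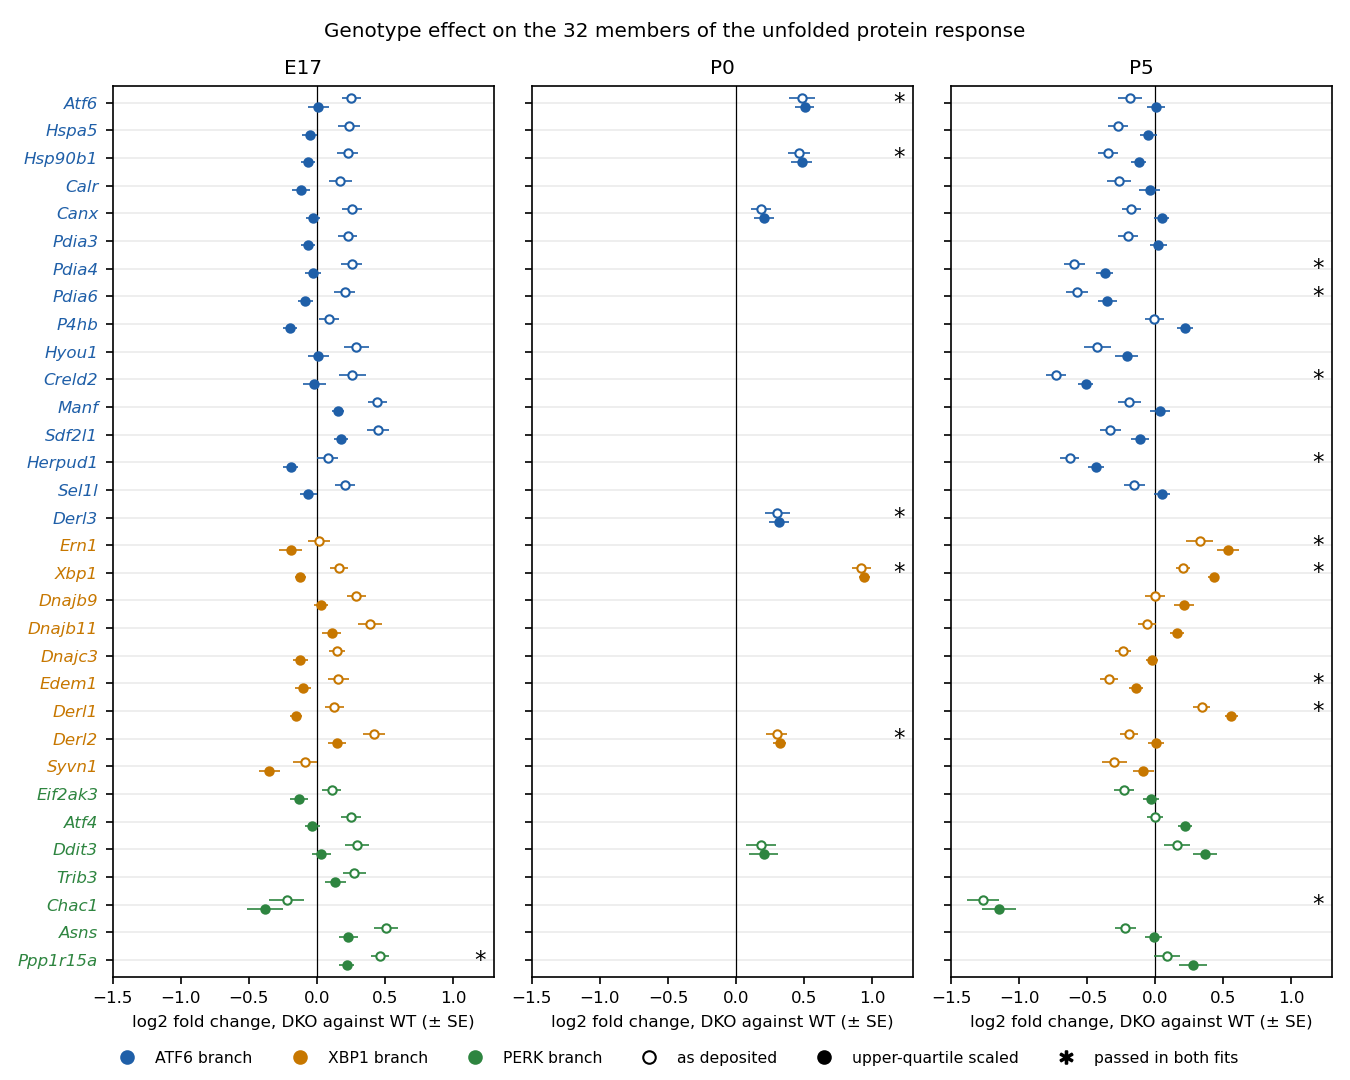
Log2 fold change of DKO against WT with its standard error for each member (rows, coloured by branch) at E17, P0 and P5, as deposited (open points) and after upper-quartile scaling (filled points). Asterisks mark the members past both fits, 1 at E17, 5 at P0 and 9 at P5. Rows without points were below the filter or, at P0, not analysed here.

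At P0, 5 of the 7 members tested rose in DKO and none fell, and Xbp1 (mm10 chr11:5520659-5525893) changed most. By the same rule 16.7% of the 2062 genes tested at this stage were higher and 22.8% lower, against 71.4% of the members higher. The P0 values at hand are for genes of chromosomes 1 and 10 and of chromosome 11 up to base 96873954 (mm10), so that the shares, the medians and the scaling at P0 describe those genes alone (69 symbols had no position in GENCODE). Xbp1 had 43.3, 39.4 and 44.4 RPKM in WT and 79.9, 79.7 and 83.6 in DKO. The lowest DKO library was far above the highest WT library, and the log2 fold change was 0.92 ± 0.07 (SE, n = 3 per group) as deposited and 0.94 ± 0.04 after scaling (limma adjusted p 1.15e-06 and 2.70e-06). The members' median log2 fold change was 0.30 as deposited and 0.32 after scaling, while that of all genes was -0.05 and -0.04. After scaling alone 6 members were higher and 0 lower (21.5% and 25.8% of all genes), and the counts as deposited were 5 and 0 (16.7% and 23.2%). All DKO libraries lay above all WT libraries for 6 of the 7 members and below them for 0 on either scale (as deposited 21.0% and 29.3% of all genes, scaled 26.2% and 31.9%). The 6 were not the same: Ddit3 overlapped as deposited and Canx after scaling. By limma neither fit had a member lower, also at an unadjusted p under 0.05 in both fits, where 6 were higher and 0 lower (19.8% and 28.0% of all genes).

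In the ATF6 branch at P0, Atf6 itself had 5.98, 5.77 and 6.93 RPKM in WT and 9.88, 8.42 and 9.04 in DKO, with groups apart and a log2 fold change of 0.49 ± 0.09 (limma adjusted p 0.00154). Hsp90b1 had 265, 304 and 322 RPKM in WT and 417, 395 and 413 in DKO, a log2 fold change of 0.46 ± 0.08 (adjusted p 0.000831). After scaling the values of these genes were 0.50 and 0.48. Canx, a membrane-bound lectin chaperone, had 97.4, 106 and 104 RPKM in WT and 125, 107 and 117 in DKO, and it passed after scaling (0.20, adjusted p 0.0499) but not as deposited (0.18, adjusted p 0.0675). Without the DKO replicate 2 library, the lowest of its group, Canx passed both fits with 0.24.

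Derl2 and Derl3 rose at P0; they are the derlin genes with values at this stage, and their products help to move misfolded proteins out of the ER. Derl2 had 15.8, 14.3 and 16.7 RPKM in WT and 19.3, 19.6 and 19.3 in DKO, a log2 fold change of 0.30 ± 0.08 (limma adjusted p 0.00802). Derl3 was low, with 1.85, 1.93 and 1.85 RPKM in WT and 2.66, 2.46 and 2.53 in DKO, and also had 0.30 ± 0.09 (adjusted p 0.0178). Groups of both genes were apart. The call of Derl3 was lost as deposited without the WT replicate 1 (adjusted p 0.0681), DKO replicate 1 (0.0749) or DKO replicate 3 library (0.0645). Ddit3, the single PERK branch member at hand at P0, had 6.31, 7.88 and 9.23 RPKM in WT and 8.78, 9.02 and 8.92 in DKO, which overlap, and did not pass (0.18, adjusted p 0.217).

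Of the 83 other genes of the branches, 15 were tested at P0, and 5 rose (33.3%) and 3 fell (20%). Os9 and Erlec1, lectins that bring misfolded glycoproteins to the HRD1 ligase, rose, Os9 from 50.9, 57.9 and 56.3 RPKM to 107, 103 and 112 and Erlec1 from 18.0 to 20.7 RPKM to 29.9 to 36.2. Their log2 fold changes were 0.95 and 0.74 (limma adjusted p 1.15e-06 and 3.42e-05). Cnpy2 rose from 103 to 108 RPKM to 126 to 145. Rtcb, the ligase that joins the Xbp1 exons after IRE1 cuts them, fell from 69.7 to 74.6 RPKM to 59.2 to 60.9, by 0.26 on the log2 scale (adjusted p 0.00562). Atf3 and Shmt2, both targets of ATF4, fell by 0.48 and 0.38. They were the 2 fallers among 4 other PERK branch genes tested at P0, of which 1 rose.

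Markers of other tissues differed between the genotypes at P0 too, in both directions, and their part in these results was not tested. Col1a1 had 533, 463 and 536 RPKM in WT and 1727, 2682 and 2379 in DKO, whereas Col3a1 was lower, with 85.6 to 140.4 RPKM in WT and 48.3 to 64.0 in DKO. These were the 2 of 10 mesenchyme markers with values at P0, and no tooth epithelium, plasma cell or endothelium marker was among the genes analysed here at P0. Of 2 red cell genes with values, Hba-a2 fell from 707 to 789 RPKM to 281 to 316, by 1.31 on the log2 scale (limma adjusted p 2.24e-07), and Hba-a1 did not pass (-0.04). The immune cell marker Cd68 fell by 0.40 on the log2 scale, while Lyz2 (0.18) and the muscle marker Des (-0.24) did not pass.

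At P5, in the secretory stage, 3 of 30 members tested rose in DKO, all of them among those sorted into the XBP1 branch. Another 6 fell, 4 in the ATF6 branch and 1 each in the XBP1 and PERK branches, the last being Chac1, which met the filter through WT alone. Across the 11423 genes tested 7.35% were higher and 30.8% lower, against 10% and 20% of the members. As deposited 3 members were higher and 18 lower (7.36% and 58.2% of all genes), and after scaling 9 were higher and 6 lower (19.4% and 30.8% of all genes). All DKO libraries lay above all WT libraries for 2 members and below them for 19 as deposited (8.66% and 61.8% of all genes), and for 8 and 6 after scaling (23.2% and 35.8%). The median of the members was -0.21 as deposited and -0.00 after scaling, against -0.25 and -0.06 for all genes. By branch the medians after scaling were -0.05 for ATF6, 0.16 for XBP1 and 0.10 for PERK.

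The risers at P5 were the sensor Ern1, its target Xbp1 and the derlin gene Derl1. Xbp1 had 72.4, 69.8 and 68.2 RPKM in WT and 79.8, 80.7 and 82.9 in DKO, with groups apart and a log2 fold change of 0.21 ± 0.05 as deposited and 0.43 ± 0.04 after scaling (limma adjusted p 0.00510 and 6.19e-05). Derl1 had 38.4, 35.5 and 33.5 RPKM in WT and 44.8, 47.0 and 44.9 in DKO, a log2 fold change of 0.34 ± 0.06 and 0.56 ± 0.05 (adjusted p 0.000810 and 4.24e-05). Every DKO library was above every WT library for both. Ern1 had 14.2, 10.7 and 11.1 RPKM in WT and 14.2, 15.6 and 15.9 in DKO, so that its WT replicate 1 library reached the DKO level. Its log2 fold change was 0.33 ± 0.10 as deposited (adjusted p 0.0127) and 0.54 ± 0.08 after scaling, and without the WT replicate 3 library the former missed the threshold (adjusted p 0.0550).

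The rest of the XBP1 branch did not rise in both fits. Edem1, which helps to pull misfolded glycoproteins out of the folding cycle, fell from 8.62, 7.97 and 7.98 RPKM to 6.20, 6.17 and 6.41, a log2 fold change of -0.34 as deposited and -0.14 after scaling (limma adjusted p 0.00118 and 0.0423). With any 1 library left out the call of Edem1 was lost, with adjusted p of 0.0613 to 0.117 after scaling. Dnajb11, which encodes the BiP co-chaperone ERdj3, had 61.7 to 72.5 RPKM in WT and 63.2 to 65.5 in DKO, and Dnajb9, for ERdj4, had 15.4 to 18.2 and 15.5 to 17.2. Both were higher after scaling alone, at 0.16 and 0.21, and -0.06 and -0.00 as deposited. Derl2, Dnajc3 and Syvn1 had between -0.09 and 0.01 after scaling, and -0.30 to -0.19 as deposited.

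The fallers of the ATF6 branch at P5 were Creld2, Herpud1, Pdia4 and Pdia6. Creld2, which encodes an ER protein made under ER stress, had 31.4, 27.7 and 25.8 RPKM in WT and 17, 16.2 and 16.7 in DKO, with a log2 fold change of -0.73 ± 0.07 as deposited and -0.51 ± 0.05 after scaling (limma adjusted p 2.72e-05 and 0.000125). Herpud1, a scaffold of the degradation complex at the ER membrane, had 8.44, 7.88 and 8.35 RPKM in WT and 4.74, 5.14 and 5.02 in DKO (-0.63 ± 0.07 and -0.43 ± 0.06, adjusted p 3.76e-05 and 0.000464). All DKO libraries of both genes lay under all WT libraries. Pdia4 had 87.7, 70.3 and 79.1 RPKM in WT and 50.9, 52.3 and 52.3 in DKO (-0.59 and -0.37). Pdia6 had 172, 134 and 155 RPKM in WT and 101, 98.7 and 107 in DKO (-0.58 and -0.35). These disulfide isomerase genes, too, had groups apart on either scale.

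The abundant chaperone genes Hspa5, Hsp90b1 and Calr were lower as deposited at P5 but did not pass after scaling. Hspa5 had 252, 204.2 and 224 RPKM in WT and 179.9, 189.5 and 191 in DKO, and its log2 fold change was -0.27 as deposited (limma adjusted p 0.00730) and -0.05 after scaling (0.524). Hsp90b1 had 230.1, 189 and 196 RPKM in WT and 155, 163 and 165 in DKO, with -0.34 and -0.12 (adjusted p 0.106 after scaling). Calr had 500.0, 377 and 396 RPKM in WT and 346, 361 and 343 in DKO, with -0.27 and -0.04. For these 3 genes the DKO libraries were all lower as deposited and overlapped WT after scaling. Canx, Pdia3, Manf, Sel1l and Atf6 had between 0.01 and 0.05 after scaling. P4hb had -0.01 as deposited, with 285 to 338 RPKM in WT and 289.5 to 319.8 in DKO, and 0.22 after scaling (adjusted p 0.0127).

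With the WT replicate 2 library left out, 3 more members of the ATF6 branch fell at P5. This library was the lowest WT library for all 3, so that leaving it out widened the difference. Hsp90b1, Hyou1, a nucleotide exchange factor of BiP, and Sdf2l1 then passed both fits as lower, with limma adjusted p of 0.0282, 0.0101 and 0.0221 after scaling. The same omission lost the calls of Edem1 and Chac1, so that 7 members were lower, against 6 with all libraries. With the WT replicate 1 or the WT replicate 3 library left out, 4 members were lower. No share of all genes is given for these settings. With all libraries Hyou1 had 35.8, 26.1 and 28.8 RPKM in WT and 21.2, 23.3 and 21.7 in DKO (-0.21 after scaling, adjusted p 0.0716). Sdf2l1 had 27.3 to 34.4 RPKM in WT and 23.4 to 24.8 in DKO (-0.11, adjusted p 0.170). Derl3 was below the filter at 0.178 to 0.682 RPKM.

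In the PERK branch at P5, Chac1 had 2.15, 3.37 and 2.41 RPKM in WT and 0.467, 0.568 and 0.473 in DKO. It met the filter of 1 RPKM in 3 libraries through the WT libraries alone, where it is high, so that it could enter the test only with a difference. The log2 fold change was -1.27 ± 0.12 as deposited and -1.15 ± 0.12 after scaling (limma adjusted p 1.79e-05 and 0.000150), and without a filter the adjusted p was 0.00126 and 0.00277. With any 1 WT library left out Chac1 no longer met the filter and its call was lost. The filter set on all 6 libraries, an alternative added after the values were seen, keeps the entry of Chac1 through WT. It thus gives no independent support for the call. With any 1 of the 6 left out, the log2 fold change was then -1.36 to -1.13 as deposited and -1.25 to -0.999 after scaling. Atf4, which encodes the factor that acts on Chac1, had 58.8, 62.1 and 56.4 RPKM in WT and 61.0, 56.5 and 59.6 in DKO, with -0.00 as deposited and 0.22 after scaling (adjusted p 0.00807). Ddit3 had 7.84 to 10 RPKM in WT and 9 to 10.8 in DKO, and was higher after scaling alone (0.37). Asns had 12.3 to 15.2 RPKM in WT and 11.3 to 12.0 in DKO, and Eif2ak3 had 7.27 to 8.57 and 6.35 to 6.84. Both were lower as deposited alone. Ppp1r15a, the riser at E17, had 5.71 to 6.48 RPKM in WT and 5.83 to 7.65 in DKO. It did not pass as deposited (0.09, limma adjusted p 0.448) but was higher after scaling alone (0.28, adjusted p 0.0459). Trib3 was below the filter, at 0.026 to 0.245 RPKM.

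**Figure D2:**
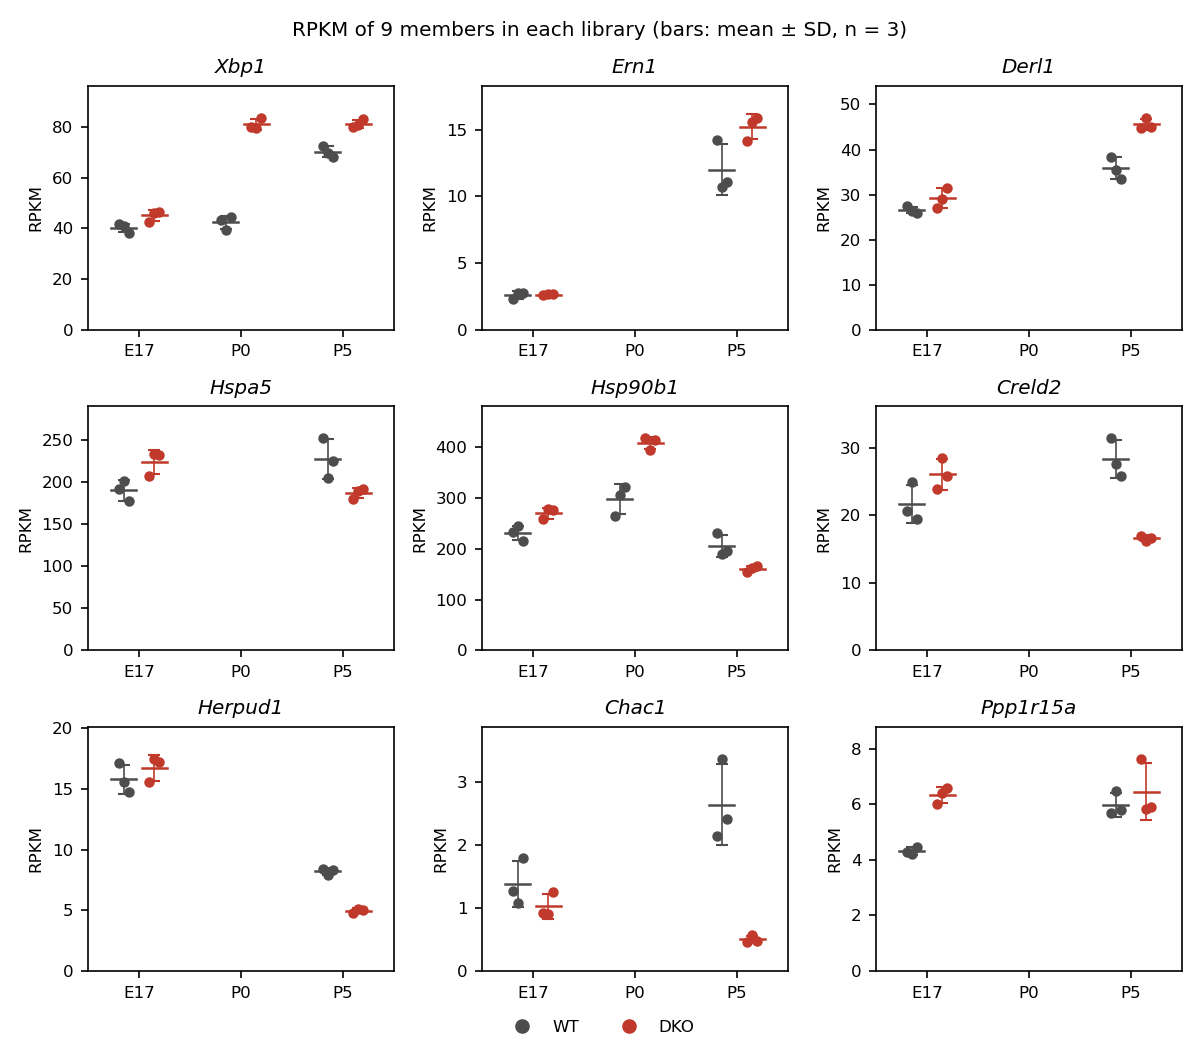
RPKM of 9 members in every library of WT (grey) and DKO (red) at E17, P0 and P5, with bars for mean and SD of the 3 libraries; a gap at P0 is a gene not analysed here at that stage. Xbp1 at P0 sat between 79.7 and 83.6 in DKO and between 39.4 and 44.4 in WT, and Creld2, Herpud1 and Chac1 at P5 lay lower in all DKO libraries.

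Of the 83 other genes of the branches, 80 were tested at P5, 5 rose (6.25%) and 26 fell (32.5%), shares near those of all genes. Psat1, an enzyme of serine synthesis under ATF4, fell from 6.52, 7.25 and 5.73 RPKM to 2.74, 2.21 and 2.33 (log2 fold change -1.13, limma adjusted p 1.11e-05). Sesn2, also a target of ATF4, fell from 7.32 to 7.70 RPKM to 4.18 to 4.33, and Rnf5, a ubiquitin ligase of the ER membrane, from 32.2 to 38.4 RPKM to 20.5 to 22.2. Atf3 rose from 1.67 to 2.10 RPKM to 2.94 to 3.32, against its fall at P0. Vldlr, a lipoprotein receptor gene, and Rnf139, another ER ubiquitin ligase gene, rose by 0.38 and 0.25 on the log2 scale. By list, 10 of 31 other ATF6 branch genes, 5 of 23 XBP1 branch genes and 11 of 26 PERK branch genes fell. Stc2, counted among these fallers of the PERK branch, met the filter through its WT libraries alone, so that it could enter the test only with a difference.

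The makeup of the P5 libraries differed between the genotypes. Amelx and Ambn together held 26.5%, 28.3% and 25.3% of the summed RPKM in WT and 45.6%, 44.9% and 40.4% in DKO. The summed RPKM of the 10 mesenchyme and odontoblast markers was 2532 to 2898 in WT and 1103 to 1492 in DKO, with 7 lower and 0 higher. The 5 red cell markers were all lower, at 1348 to 1478 in WT and 517 to 1185 in DKO, and all 3 immune cell markers tested were lower. The part of these shifts in the members' values was not tested. The plasma cell and salivary gland lists summed to at most 0.794 and 0.467 RPKM in any P5 library.

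Ratios of members within a library do not depend on how the library is scaled, and the pairs were chosen after the values were seen, so that the ratios are given as a description with no test. The ratio of Xbp1 to Hsp90b1 was 0.178, 0.168 and 0.178 in WT and 0.166, 0.167 and 0.170 in DKO at E17. At P0 it was 0.164, 0.129 and 0.138 in WT and 0.192, 0.202 and 0.202 in DKO, and at P5 0.315, 0.369 and 0.348 in WT and 0.516, 0.496 and 0.502 in DKO. The mean ratio in DKO over that in WT was thus 0.958, 1.38 and 1.47. Against Hspa5 this quotient was 0.951 at E17 and 1.40 at P5, and against Creld2 0.927 and 1.96.

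In the PERK branch the ratio of Chac1 to Atf4 at P5 was 0.0366, 0.0543 and 0.0428 in WT and 0.00766, 0.0101 and 0.00795 in DKO, a quotient of 0.192. At E17 that quotient was 0.617, also with groups apart. The ratio of Herpud1 to Hspa5 had a quotient of 0.899 at E17 and 0.729 at P5, and the DKO libraries lay under the WT libraries at both stages.

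**Figure D3:**
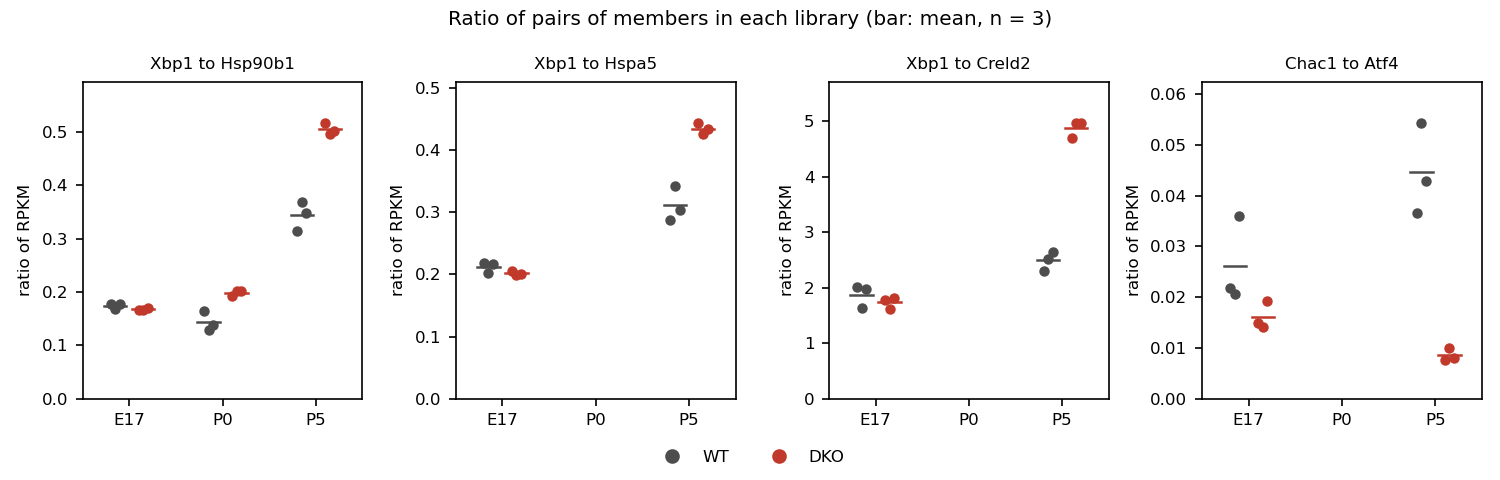
Ratio of the RPKM of pairs of members in each WT (grey) and DKO (red) library at E17, P0 and P5, with a bar for the mean of the 3 libraries; a gap at P0 is a pair not analysed here. The ratio of Xbp1 to Hsp90b1 overlapped at E17 and was 0.192 to 0.202 in DKO against 0.129 to 0.164 in WT at P0.

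Most Xbp1 RNA was assigned to 1 transcript at every stage. At E17 this transcript held 88.6%, 86.4% and 87.0% of the gene's RPKM in WT and 92.3%, 89.7% and 89.2% in DKO. At P0 the same transcript held 93.7%, 92.3% and 92.6% in WT and 90.9%, 91.9% and 90.4% in DKO. Groups were apart in opposite directions, by 3.07 and -1.80 percentage points, each with an exact permutation p of 0.1, the smallest that 3 against 3 libraries allow. At P5 the names are RefSeq accessions, and the second of 2 Xbp1 transcripts held 0.391%, 0.203% and 0.291% in WT and 0.147%, 0.227% and 0.110% in DKO. Which of these names stands for the RNA spliced by IRE1 is not stated in the sources used, so splicing of Xbp1 was not analysed.

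The genotype effect was also compared between stages, gene by gene. Between E17 and P5, 9 of 30 members tested in both stages had a different effect in both fits, against 30.1% of all 11049 genes tested. Creld2 had a log2 fold change of 0.26 at E17 and -0.73 at P5, a difference of -0.99 ± 0.12 (adjusted p 2.85e-06, Satterthwaite test on the limma fits), and -0.49 after scaling (0.00159). Chac1 went from -0.22 to -1.27, but it met the filter through its WT libraries at both stages. Pdia4, Pdia6, Sdf2l1, Herpud1 and Asns also had more negative effects at P5. Ern1 and Derl1 had more positive ones, with scaled differences of 0.73 and 0.71. Xbp1 differed after scaling alone (0.55, against 0.05 as deposited). Counted in each fit alone, 26 members differed as deposited and 13 after scaling (80.7% and 44.2% of all genes).

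The comparisons with P0 were added after the values were seen, and both use the same P0 libraries. Between E17 and P0, 1 of 6 members tested in both stages differed (31.6% of all genes did): the effect on Xbp1 was larger at P0 by 0.76 ± 0.10 as deposited and 1.07 ± 0.06 after scaling (adjusted p 2.11e-06 and 1.91e-09). Between P0 and P5, 4 of 6 members differed (41.1% of all genes did), and each had a lower effect at P5. These were Hsp90b1 (-0.81), Xbp1 (-0.71), Atf6 (-0.67) and Derl2 (-0.49). Xbp1 thus was higher in DKO at P0 and P5 with a smaller difference at P5, and its levels were not tested between stages.

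**Figure D4:**
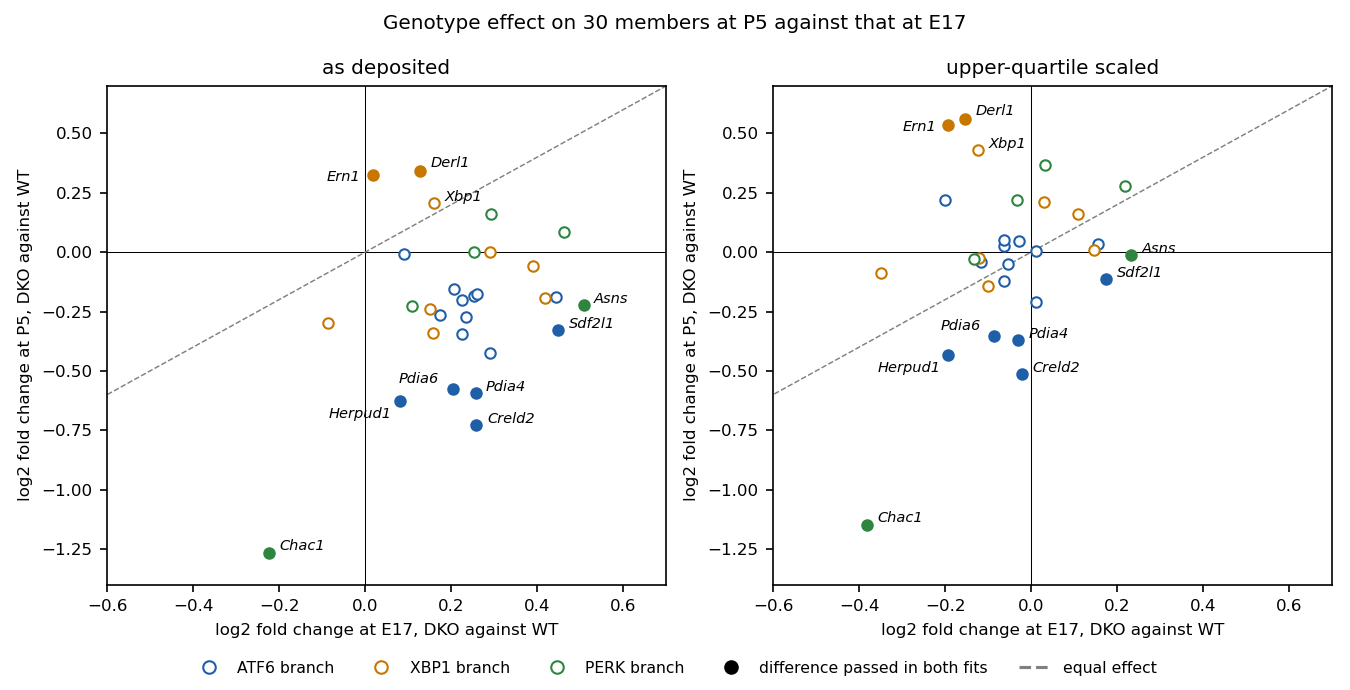
Log2 fold change of DKO against WT at P5 (vertical axis) against that at E17 (horizontal axis) for the 30 members tested in both, coloured by branch, as deposited (left) and after upper-quartile scaling (right); the dashed line marks equal effects. Filled points are the 9 members whose difference passed in both fits, with Creld2, Pdia4, Pdia6, Herpud1 and Chac1 below the line and Ern1 and Derl1 above it. Chac1 met the filter through its WT libraries at both stages.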

How the data were processed

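Molar dental epithelium was separated from mesenchyme with dispase (1 U/ml), and ribosomal RNA was removed from 1 µg of RNA (integrity number over 7), per the labels' protocols. The authors processed reads with Partek on mm10, per the submitters' processing notes; the sources do not state aligner, annotation or strand of counting, so overlapping and antisense genes cannot be told apart. The deposited values are per transcript and were read as RPKM from the values, since no source names the unit. P5 transcripts carry RefSeq accessions and those of the other stages Ensembl-style names, so levels were not tested between stages.

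RPKM were summed per symbol, genes reaching 1 RPKM in 3 or more libraries of a stage were kept, and log2(RPKM + 1) was fitted with limma 3.58.1 (empirical Bayes with trend, R 4.3.3), two-sided, with Benjamini-Hochberg adjustment over all genes of the stage. Positions are from GENCODE M21, and 18 libraries entered, 6 per stage. The fit was tested on simulated data with 200 changed genes. The members and gene lists were chosen with earlier results of these data known. All 32 members are named, and up to 6 other pathway genes per stage with the smallest scaled adjusted p.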

Additional observations from a re-analysis of the deposited data

Results flagged for a closer look

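The genotype effect (log2 fold change of DKO against WT, as deposited) differed between stages for the following members, in both fits at an adjusted p under 0.05. By this rule 30.1% of all genes differed between E17 and P5, 31.6% between E17 and P0 and 41.1% between P0 and P5. The median effect of all genes as deposited was itself 0.25 at E17, -0.05 at P0 and -0.25 at P5. The effect at P5 minus that at E17 was -0.99 for Creld2, -0.85 for Pdia4, -0.78 for Pdia6, -0.78 for Sdf2l1, -0.71 for Herpud1, -1.04 for Chac1 and -0.73 for Asns. It was 0.31 for Ern1 and 0.21 for Derl1. After scaling these differences were -0.49 for Creld2, -0.34 for Pdia4, -0.27 for Pdia6, -0.29 for Sdf2l1 and -0.24 for Herpud1. Those of Chac1, Asns, Ern1 and Derl1 were then -0.77, -0.24, 0.73 and 0.71. Chac1 met the filter through its WT libraries at both stages, which limits its difference. The effect at P0 minus that at E17 was 0.76 for Xbp1 (1.07 after scaling). The effect at P5 minus that at P0 was -0.67 for Atf6, -0.81 for Hsp90b1, -0.71 for Xbp1 and -0.49 for Derl2. After scaling these were -0.50, -0.60, -0.51 and -0.31. Transcript names differ between the tables of P5 and of the earlier stages, and their part in the differences was not tested.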

How the results depend on the processing

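With the values as deposited alone, 20 members were higher at E17 and 18 lower at P5 (56.3% and 58.2% of all genes). With upper-quartile or median-of-ratios scaling alone 2 were lower at E17 and 9 higher at P5. The shares of all genes were 8.03% and 19.4% with the upper quartile. Scaling moved the members' median from 0.2358 to -0.0537 (upper quartile) and -0.0511 (median of ratios) at E17 and from -0.2102 to -0.0030 and 0.0539 at P5. The number whose effect differed between E17 and P5 went from 26 to 13 with the upper quartile (80.7% and 44.2% of all genes). Under these scalings P4hb turned direction at E17 (-0.20 and -0.20), and at P5 P4hb (0.22 and 0.28), Dnajb9 (0.21 and 0.27), Dnajb11 (0.16 and 0.23) and Atf4 (0.22 and 0.28) did. With a change of 1 or more on the log2 scale asked for, 0 members were higher at any stage and 1 was lower at P5. The latter was Chac1, which met the filter through WT alone, and the share of all genes is not given here. A pseudocount of 0.1 gave a P0 median of 0.42. Edem1 at P5 was lost without a filter (adjusted p 0.142 after scaling) and under median-of-ratios scaling (0.190), and Ern1 without a filter (0.0552).

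With 1 library left out in turn, the members higher numbered 0 to 2 (E17), 4 to 6 (P0) and 2 to 3 (P5), and those lower 0 to 0, 0 to 0 and 4 to 7, with Chac1 below the filter whenever a WT library of P5 was left out. For these counts no share of all genes is given, so they describe the members alone. The medians ranged from 0.19 to 0.27, from 0.30 to 0.35 and from -0.28 to -0.14, and the change in the share of the main Xbp1 transcript from 2.10 to 3.73, from -2.22 to -1.37 and from 0.0817 to 0.177 percentage points.

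Replicate numbers are shared between the groups. Deviations of libraries with the same number correlated at -0.022, 0.22 and -0.0215 (E17), -0.166, 0.27 and -0.0815 (P0) and -0.222, -0.0724 and 0.0442 (P5). Per stage, 1 of 3 numbers correlated best with its own. These values show no steady pairing by number, but 3 libraries per group are too few to exclude one. The main fits took the samples as unpaired. With the replicate number as a block, the members higher numbered 0 (E17), 5 (P0) and 3 (P5), and 5 were lower at P5. The shares of all genes with this block are not given. The values carry no read counts, so no count test was run.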
